A study of Mus musculus with 4 samples.

Results

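The genes of the Hedgehog pathway followed here are 2 secreted ligands, Ihh (Indian hedgehog) and Dhh (Desert hedgehog), the receptor Ptch1, the transducer Smo, the transcription factors Gli1, Gli2 and Gli3, and the decoy receptor Hhip. They are 8 of the 32285 genes counted, were chosen by symbol, and were found in each of 4 single-cell RNA sequencing libraries from mouse ovary. The mice were prepubertal, on postnatal day 25 at the start. The control library came from mice given the vehicle (PBS/Saline). Another group received doxorubicin, a DNA-damaging chemotherapy drug, at 3 mg/kg in 2 weekly doses. The remaining groups received AMH at 0.75 mg/kg, one together with doxorubicin at 3 mg/kg and one alone. AMH is anti-Müllerian hormone, a product of granulosa cells, given here as the recombinant human protein. Ovaries were taken 4 hours after the second doxorubicin dose, and every group is a pool of 5 mice that gave 1 ovary each. Each group is therefore 1 library, the spread between animals was not measured, and no test between groups can be made. The labels mark each library with 4 hours, and the schedule of the AMH and vehicle doses is not spelled out in the sources used here. All intervals below are 95% and cover counting error only.

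In the ovary, granulosa cells of growing follicles surround the oocyte and secrete Ihh and Dhh, and cells outside the follicle's basement membrane receive them. The ligand binds Ptch1, which frees Smo to signal at the primary cilium, and the Gli proteins then switch target genes on. Ptch1, Gli1 and Hhip are themselves targets, so their transcripts are commonly read as the response. The pathway is known for its part in recruiting and maturing theca cells, the steroid-producing layer around the follicle, and the smooth muscle beside it.

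The libraries held 7141 to 9478 cells, with 138647495 to 178279122 UMIs each. UMIs are the molecular tags that keep copies of one captured transcript from being counted again. After filtering, 28230 cells were clustered into 33 clusters, without the Hedgehog genes, and 31 clusters were named in 13 classes from marker genes. A class name carries "-like". Pairs of libraries shared 11 to 24 cell barcodes, at most 0.281% of the smaller library. Where 4 values follow each other below, they run from control through doxorubicin and doxorubicin+AMH to AMH. Granulosa-like cells numbered 2140, 1975, 2306 and 3017, and theca-like cells 846, 587, 718 and 881. Stroma-like cells numbered 3102, 2253, 2258 and 2279, and smooth muscle-like cells 884, 506, 728 and 848. For each class and library the UMIs were summed over cells and are given as CPM, the UMIs counted for a gene out of each 1000000 in that sum. Ratios are log2 ratios of CPM between libraries. A gene was counted as past the threshold where its fold was at least 1.5 and its mean over the 4 libraries at least 10 CPM.

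By the GENCODE annotation of GRCm38, Ihh lies on the minus strand at chr1:74945315-74951672 and Dhh on the minus strand at chr15:98891152-98898540. Ptch1 lies at chr13:63508328-63573598 (minus strand), Smo at chr6:29735503-29761365 (plus strand), Gli1 at chr10:127329882-127341974 (minus strand) and Gli2 at chr1:118834132-119053619 (minus strand). Gli3 is at chr13:15463235-15730026 (plus strand) and Hhip at chr8:79965851-80058006 (minus strand). Exons of Dhh overlap those of Rhebl1 on the same strand, and exons of Gli1, Gli3 and Hhip overlap those of Arhgap9, Gm6556 and Gm27820 on the other strand. The values of Dhh are therefore less certain where reads of overlapping genes were split, and those of Gli1, Gli3 and Hhip where reads were counted regardless of strand. Rhebl1 stood at 10.95, 10.8, 9.74 and 12.3 CPM in granulosa-like cells, and Arhgap9 was at most 0.593 CPM in any of the granulosa-like, theca-like, stroma-like and smooth muscle-like classes.

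The 250 bases before the RefSeq start of transcription are shown for both ligands, which reach other cells from the granulosa layer, and for Ptch1 and Hhip, the receptor and decoy that read out the response. They are RefSeq sequences of GRCm38.p6, all on the minus strand, from chr1:74951673-74951922 (Ihh), chr15:98898541-98898790 (Dhh), chr13:63565736-63565985 (Ptch1) and chr8:80058009-80058258 (Hhip). The RefSeq start used for Ptch1 lies inside the gene as GENCODE bounds it, so its window is not upstream of the outermost annotated start.
Ihh: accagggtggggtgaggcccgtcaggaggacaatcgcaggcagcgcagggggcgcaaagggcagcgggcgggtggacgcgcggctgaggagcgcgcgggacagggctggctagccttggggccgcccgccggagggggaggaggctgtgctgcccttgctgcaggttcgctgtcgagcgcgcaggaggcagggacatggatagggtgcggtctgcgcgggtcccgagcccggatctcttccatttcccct
Dhh: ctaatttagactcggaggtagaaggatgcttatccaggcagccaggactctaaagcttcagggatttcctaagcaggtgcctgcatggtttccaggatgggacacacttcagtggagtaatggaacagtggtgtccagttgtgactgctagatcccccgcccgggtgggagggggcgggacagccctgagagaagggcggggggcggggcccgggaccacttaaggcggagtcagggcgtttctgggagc
Ptch1: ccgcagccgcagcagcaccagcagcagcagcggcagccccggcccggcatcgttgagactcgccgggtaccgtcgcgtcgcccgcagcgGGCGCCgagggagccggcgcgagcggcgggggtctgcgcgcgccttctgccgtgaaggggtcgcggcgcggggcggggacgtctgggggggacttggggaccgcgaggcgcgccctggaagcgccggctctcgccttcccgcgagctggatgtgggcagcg
Hhip: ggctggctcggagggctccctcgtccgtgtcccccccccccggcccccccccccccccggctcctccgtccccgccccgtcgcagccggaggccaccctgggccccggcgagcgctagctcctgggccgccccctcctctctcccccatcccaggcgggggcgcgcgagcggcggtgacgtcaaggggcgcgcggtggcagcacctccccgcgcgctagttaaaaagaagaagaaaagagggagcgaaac
Capitals mark the letters of the GC-rich SMAD element, GGCGCC, which is read by the transcription factors downstream of AMH and other ligands of its family. Of the 7 member windows available (Gli1 had no entry), only that of Ptch1 held it, 161 bases before the start. On either strand, 9.59% of 32851 promoter windows of the same length hold these letters. The GLI site GACCACCCA was in none of the 7 windows and is in 0.225% of all windows, and the looser GACCNCCCA was also in none, against 0.868% of all. These searches describe letters in 250 bases only. The windows were rich in G and C, with 72% for Ihh, 59.6% for Dhh, 78.4% for Ptch1 and 76% for Hhip, where the median promoter had 52.4%.

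The ligands were found almost only in granulosa-like cells, and the receiving genes mainly outside them. Of all 9459 Ihh UMIs, 94.9% were in granulosa-like cells, and of 6179 Dhh UMIs 89.2% were, while this class held 47.9% of all UMIs. Gli1 and Hhip were distributed the other way, with 4.49% and 1.72% of their UMIs in granulosa-like cells. Stroma-like cells held 66.4% of Gli1 and 50.03% of Hhip, and smooth muscle-like cells held 15.5% and 23.5%. Ptch1 was shared between both sides, with 34.7% of its UMIs in granulosa-like and 40.8% in stroma-like cells.

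**Figure D1:**
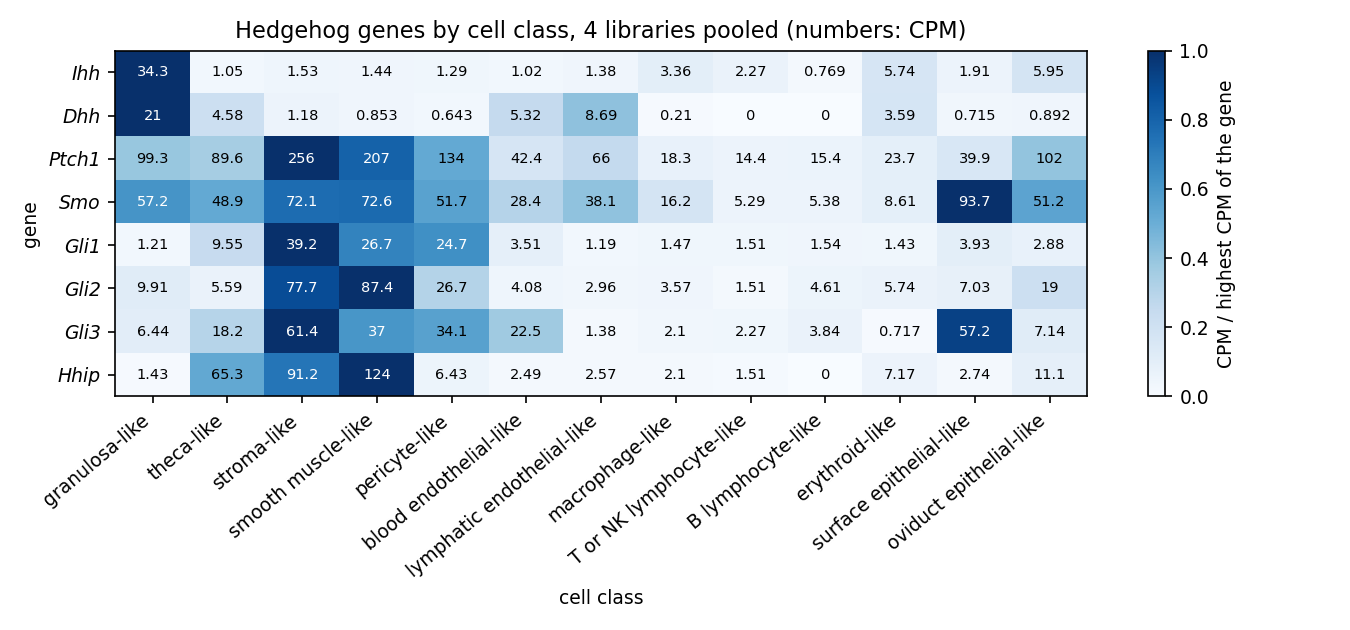
Heat map of the 8 Hedgehog genes (vertical) in 13 cell classes (horizontal), with the 4 libraries pooled. Printed numbers are CPM and shading is the CPM divided by the highest CPM of that gene. Ihh and Dhh are darkest in granulosa-like cells (34.3 and 21.0 CPM), Ptch1 and Gli1 in stroma-like cells (256 and 39.2 CPM) and Hhip in smooth muscle-like cells (124 CPM).

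Ihh had 20.7 to 55.0 CPM in granulosa-like cells and at most 9.88 CPM in every other class and library, that highest value resting on 4 UMIs in erythroid-like cells. The pooled Ihh level of theca-like cells, 1.05 CPM, lay below that of erythroid-like cells, 5.74 CPM, which are not a source of Hedgehog ligands. Dhh, which in the gonads is best known from Sertoli cells of the testis, came second in lymphatic endothelial-like cells (5.15 to 17.9 CPM, on 5 to 22 UMIs) and then in blood endothelial-like (1.99 to 6.39 CPM) and theca-like cells (2.25 to 7.02 CPM). The ranges of these 3 classes overlapped, and the lymphatic range reached to just below the granulosa-like values of 18.0 to 25.9 CPM. Shh, the remaining ligand of the family, had no UMI in granulosa-like cells of any library, which, with the limit set at 3 UMIs, allows at most 0.0396 to 0.0505 CPM.

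For the receiving genes, the order of classes was similar but not identical. Ptch1 was highest in stroma-like cells (234 to 274 CPM), followed by smooth muscle-like cells (181 to 227 CPM), with no overlap of the ranges. Granulosa-like cells (88.0 to 113 CPM) and theca-like cells (75.6 to 108 CPM) overlapped. Gli1, the Gli gene that most strictly needs the pathway to be active, had 33.4 to 44.3 CPM in stroma-like, 19.4 to 30.9 CPM in smooth muscle-like and 6.70 to 14.9 CPM in theca-like cells, also without overlap. In granulosa-like cells Gli1 stood at 1.08 to 1.35 CPM, near the 1.51 CPM of T or NK lymphocyte-like cells. Hhip, which binds ligand at the cell surface and limits its spread, had 97.0 to 143 CPM in smooth muscle-like, 77.8 to 111 CPM in stroma-like and 60.5 to 77.1 CPM in theca-like cells. The smooth muscle and stroma ranges of Hhip overlapped, and granulosa-like cells had only 0.723 to 2.35 CPM. Pericyte-like cells, which wrap small vessels, had pooled levels of 134 CPM of Ptch1 and 24.7 CPM of Gli1 but 6.43 CPM of Hhip, and their Gli1 reached 42.7 CPM in doxorubicin+AMH on 24 UMIs, within the stroma-like range. Smo was highest in surface epithelial-like cells, at a pooled 93.7 CPM, and 72.6 CPM in smooth muscle-like and 72.1 CPM in stroma-like cells. Gli2 was highest in smooth muscle-like and stroma-like cells (87.4 and 77.7 CPM pooled), and Gli3 in stroma-like and surface epithelial-like cells (61.4 and 57.2 CPM pooled).

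The first comparison asks how the ligands differed between the 4 libraries. In granulosa-like cells Ihh stood at 34.0 CPM (32.6 to 35.4) with vehicle and 55.0 CPM (53.2 to 56.9) with doxorubicin, and at 31.2 CPM (29.9 to 32.6) with both agents and 20.7 CPM (19.7 to 21.7) with AMH. The doxorubicin library was highest and the AMH library lowest, and only the intervals of control and doxorubicin+AMH met. The log2 ratio of doxorubicin to control was 0.70 (0.62 to 0.77), and that of doxorubicin+AMH to AMH was 0.60 (0.50 to 0.69). The ratio of AMH to control was -0.72 (-0.81 to -0.62), and that of doxorubicin+AMH to doxorubicin was -0.82 (-0.90 to -0.74). Ihh was thus higher with doxorubicin both without and with AMH, and lower with AMH both without and with doxorubicin. The difference between both doxorubicin ratios was -0.10 (-0.22 to 0.02).

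**Figure D2:**
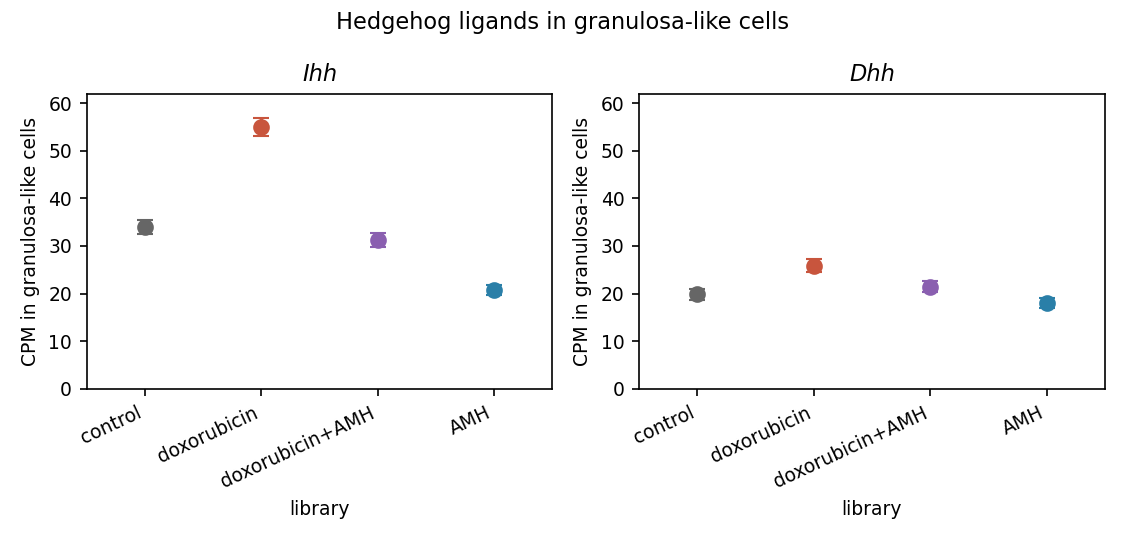
CPM (vertical) of Ihh (left) and Dhh (right) in granulosa-like cells of the 4 libraries (horizontal). Points are summed UMIs and bars are 95% exact Poisson intervals. Ihh is highest in doxorubicin (55.0 CPM) and lowest in AMH (20.7 CPM), and Dhh follows the same order at its ends (25.9 and 18.0 CPM).

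All 4 Ihh ratios were past 1.5-fold. Among the 5 members with enough counts in granulosa-like cells, Ihh was the only one past the threshold on the high side for doxorubicin against control and for doxorubicin+AMH against AMH, where 0.181% and 0.351% of 8828 genes were. For AMH against control it was the only member past it on the low side, against 2.61% of genes, and for doxorubicin+AMH against doxorubicin it was joined by Gli2, against 3.5% of genes. The mean of Gli2 was 10.1 CPM, and it passed the 10 CPM filter only through the libraries without AMH, where it was high, so this call is given as a description. Only 3 genes (0.034%) were at least 1.5-fold higher in both doxorubicin comparisons, which share no library: Ihh, Ank1 and Eda2r. Eda2r, a receptor of the TNF family known as a p53 target, was at 1.5 and 0.89, and Ank1, which codes for an ankyrin, at 0.62 and 0.64. In both AMH comparisons 152 genes (1.72%) were at least 1.5-fold lower, among them Ihh and also Ank1 (-1.42 and -1.40). The Ihh call for doxorubicin+AMH against AMH did not hold under every treatment of the data: its ratio was 0.46 with per-cell marker gates, 0.50 with a pseudocount of 5 CPM and 0.40 when every library was given the same mix of granulosa-like clusters.

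The share of cells in which Ihh was seen followed its level. The share of granulosa-like cells with an Ihh UMI was 35.9%, 44.7%, 32.7% and 23.5%, at median depths of 22412, 22759, 20850 and 16125 UMIs. With each cell thinned to 2000 UMIs the shares were 6.14% (5.15 to 7.26, Clopper-Pearson), 9.24% (7.96 to 10.6), 4.90% (4.03 to 5.88) and 3.29% (2.67 to 4.00), in the same order, after 56, 124, 101 and 127 shallower cells were left out. In T or NK lymphocyte-like cells, which should lack Ihh, the share was 1.55% at a median of 5322 UMIs and 1.13% after thinning (0.137 to 4.02), and in stroma-like cells it was 1.79% at a median of 9148.5 UMIs and 0.371% (0.26 to 0.513). The granulosa-like shares lay above both, although the interval of the AMH library overlapped that of the few lymphocyte-like cells. Theca-like cells, with 2.41% at a median of 18355 UMIs and 0.235% after thinning, did not exceed this background.

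The same directions appeared in each granulosa-like cluster. Of 8 such clusters, 7 had at least 50 cells in every library, and in all 7 Ihh was above 0 for doxorubicin against control (0.45 to 1.26) and for doxorubicin+AMH against AMH (0.16 to 1.53). This held for 4.06% and 7.48% of genes. In all 7 it was below 0 for AMH against control (-1.82 to -0.28) and for doxorubicin+AMH against doxorubicin (-1.27 to -0.23), as were 5.4% and 8.16% of genes. Counting intervals excluded 0 in 6, 7, 5 and 5 clusters in that order. Clusters of 1 library are not replicates of a treatment, since they share their animals and preparation.

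**Figure D3:**
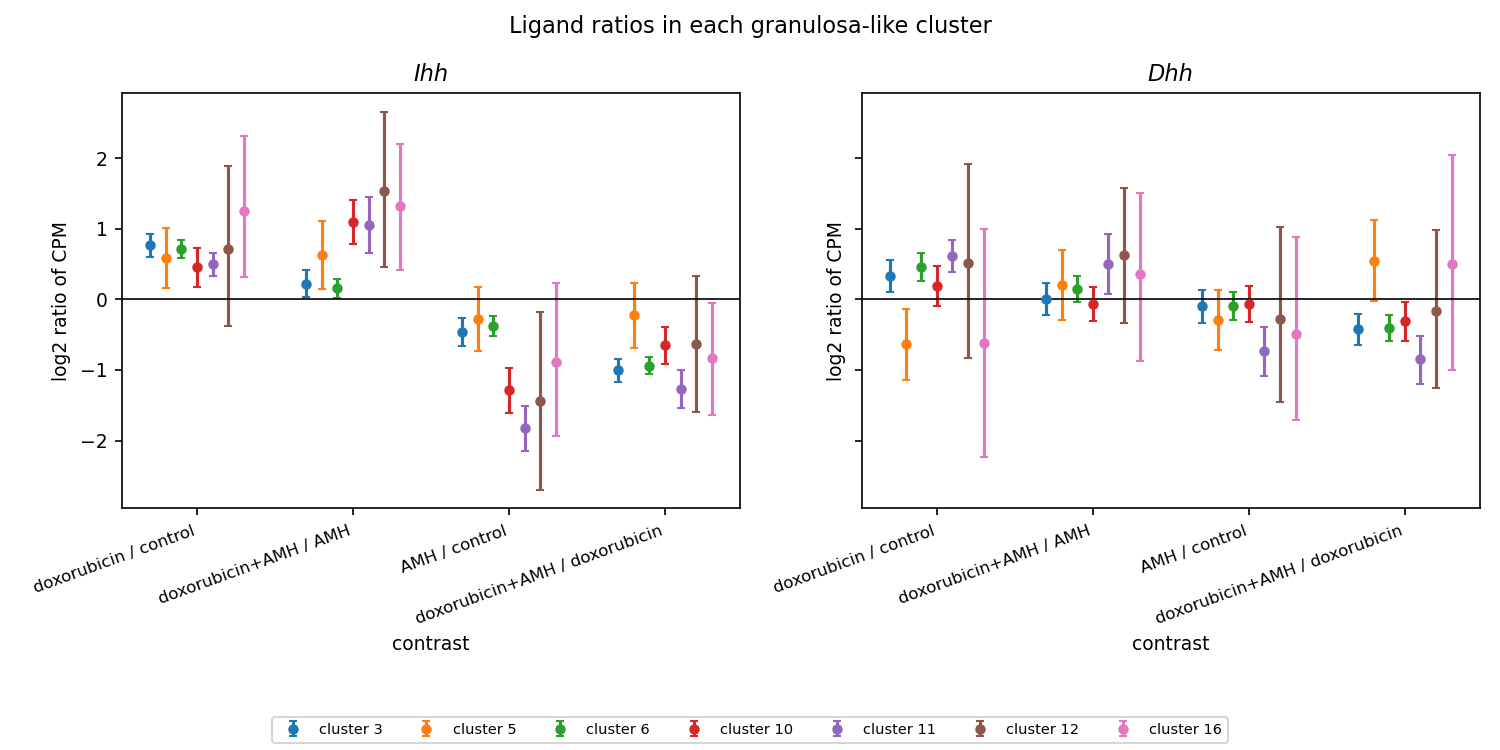
Log2 ratio of CPM (vertical) for Ihh (left) and Dhh (right) in 4 contrasts (horizontal), one coloured point per granulosa-like cluster with its 95% exact counting interval. All 7 Ihh points lie above 0 in both doxorubicin contrasts and below 0 in both AMH contrasts, while Dhh points lie on both sides of 0 in all contrasts but AMH / control.

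The clusters differed in level and in which treatment they followed most. The cluster led by Inhbb, Inhba and Mctp1 had the highest control level of Ihh, 49.4 CPM, and 80.9, 42.3 and 37.9 CPM in the other libraries. The cluster led by Kcnq5, Bmpr1b and Ank3 was lowest, with 5.25, 7.85, 6.71 and 4.33 CPM. In the cluster led by Cntn4, Slc18a2 and Amh, the last a gene of small growing follicles, Ihh was at 44.7, 63.2, 26.2 and 12.6 CPM, and the ratio of AMH to control, -1.82 (-2.15 to -1.51), was the lowest of the 7. The ratio of doxorubicin+AMH to AMH was larger there, 1.05 (0.66 to 1.45), than in the Inhbb cluster, 0.16 (0.02 to 0.29). One more granulosa-like cluster, led by Amh, Wfdc10 and Aard, held 77 of its 84 cells in the doxorubicin library and had 167 CPM of Ihh there. Without it the class ratio of doxorubicin to control was 0.66.

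Dhh differed less. Its level was 19.8 CPM (18.7 to 20.9) in control and 25.9 CPM (24.6 to 27.2) with doxorubicin, 21.4 CPM (20.3 to 22.6) with both agents and 18.0 CPM (17.03 to 18.95) with AMH. Doxorubicin was again highest and AMH lowest, although with per-cell marker gates the ratio of AMH to control turned to 0.019. The ratios were 0.39 (0.28 to 0.49), 0.25 (0.14 to 0.36), -0.14 (-0.25 to -0.03) and -0.27 (-0.38 to -0.17), for doxorubicin against control, doxorubicin+AMH against AMH, AMH against control and lastly doxorubicin+AMH against doxorubicin, and none was past 1.5-fold. Over the clusters Dhh was above 0 in 5 of 7 and in 6 of 7 for the doxorubicin contrasts, and below 0 in 7 of 7 and in 5 of 7 for the AMH contrasts. In the cluster with Amh among its leading genes it followed Ihh, with 21.2, 32.5, 18.1 and 12.8 CPM.

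Summed, the ligands reached 53.8, 80.9, 52.6 and 38.6 CPM in granulosa-like cells. The summed ratio was 0.59 for doxorubicin against control, 0.45 for doxorubicin+AMH against AMH, -0.48 for AMH against control and -0.62 for doxorubicin+AMH against doxorubicin. Among thinned cells with an Ihh UMI, 6.37% also had a Dhh UMI, against 4.02% of those without. Most cells with a UMI of either ligand therefore showed no UMI of the other at this depth.

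Other genes of ligand release moved with AMH in granulosa-like cells. Disp1, which releases the lipid-bound ligand from the cell, had 39.3, 35.9, 21.3 and 25.5 CPM and was past 1.5-fold lower in both AMH contrasts (-0.63 and -0.76). Scube1, of the secreted SCUBE family that helps carry ligand away, had 22.8, 32.0, 13.8 and 14.8 CPM, with -0.62 and -1.22. Of the 15 genes listed for ligand release and reception, 7 had enough counts. Of these, 2 were lower with AMH alone (2.61% of all genes were) and 3 with AMH on top of doxorubicin (3.5%), the additional one being the co-receptor Cdon (-0.69). None was past the threshold with doxorubicin. The list medians were -0.25 and -0.19 for the AMH contrasts, where the medians over all genes were -0.07 and -0.05.

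Ihh was most like Amh in its pattern over 98 combinations of cluster and library (Pearson r 0.914 on log2 CPM, of 9800 genes compared), followed by Wfdc10 (0.903), Spin2c (0.879), Mycl (0.877) and Apoa1 (0.865). Between Ihh and Dhh r was 0.840. Dhh was most like Syt7 (0.870), Nr5a2 (0.868) and Inha (0.867), genes of which the last 2 are granulosa markers. These combinations share libraries and depth and span classes with and without the ligands, and r is given as a description. Amh itself stood at 138, 199.7, 71.7 and 44.3 CPM in granulosa-like cells, highest and lowest in the same libraries as Ihh. The small-follicle gene Kctd14 was also lower with AMH (-1.89 in both contrasts), while Inhba and Nppc, genes of larger follicles, were higher (0.89 and 0.83 for Inhba, 1.36 and 1.62 for Nppc). Of 7 such stage genes, 2 were past 1.5-fold higher and 2 lower for AMH against control, where 0.918% and 2.61% of all genes were. For doxorubicin+AMH against doxorubicin 3 were higher and 2 lower, where 1.34% and 3.5% of all genes were. Gatm, also listed for small follicles, and Slc38a5 were past the threshold in neither contrast. The list was chosen with earlier results of these data known, so these counts are given as a description. The part of follicle stage in the Ihh difference was not tested beyond the values per cluster above.

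Granulosa-like cells also carried receiving genes. Ptch1 stood there at 113, 103, 88.0 and 94.1 CPM, higher without AMH than with it, and its AMH ratios were -0.26 (-0.31 to -0.21) and -0.23 (-0.29 to -0.18). The clusters did not share this direction: Ptch1 was above 0 in 4 of 7 for each AMH contrast (-0.61 to 0.98 and -0.58 to 0.22). Smo, the transducer, stood at 62.3, 59.6, 50.9 and 56.1 CPM. Gli2, usually the main activator of the response, was at 10.8, 13.8, 8.02 and 7.69 CPM and lower with AMH on top of doxorubicin (-0.78), in 5 of 7 clusters. Gli3, which acts mostly as a repressor, was at 5.50 to 7.31 CPM and below the 10 CPM filter, as were Gli1 and Hhip.

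The next comparison takes the receiving side in theca-like cells, the neighbours of the granulosa layer. Summed over the class, the targets had another order of libraries than the ligands. The clusters given below did not all share the sign of the class. Ptch1 stood at 75.6, 86.0, 97.5 and 108 CPM, lowest in control and highest in AMH, where Ihh was lowest. Gli1 had 6.70, 7.48, 14.9 and 11.4 CPM, with both AMH libraries above both others, and Hhip 60.5, 62.7, 77.1 and 64.9 CPM, with control, doxorubicin and AMH close together. Summed, the 3 targets reached 143, 156, 189 and 184 CPM. The summed ratio was 0.13 (0.06 to 0.20) for doxorubicin against control and 0.04 (-0.03 to 0.12) for doxorubicin+AMH against AMH. It was 0.36 (0.30 to 0.43) for AMH against control and 0.28 (0.20 to 0.35) for doxorubicin+AMH against doxorubicin.

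**Figure D4:**
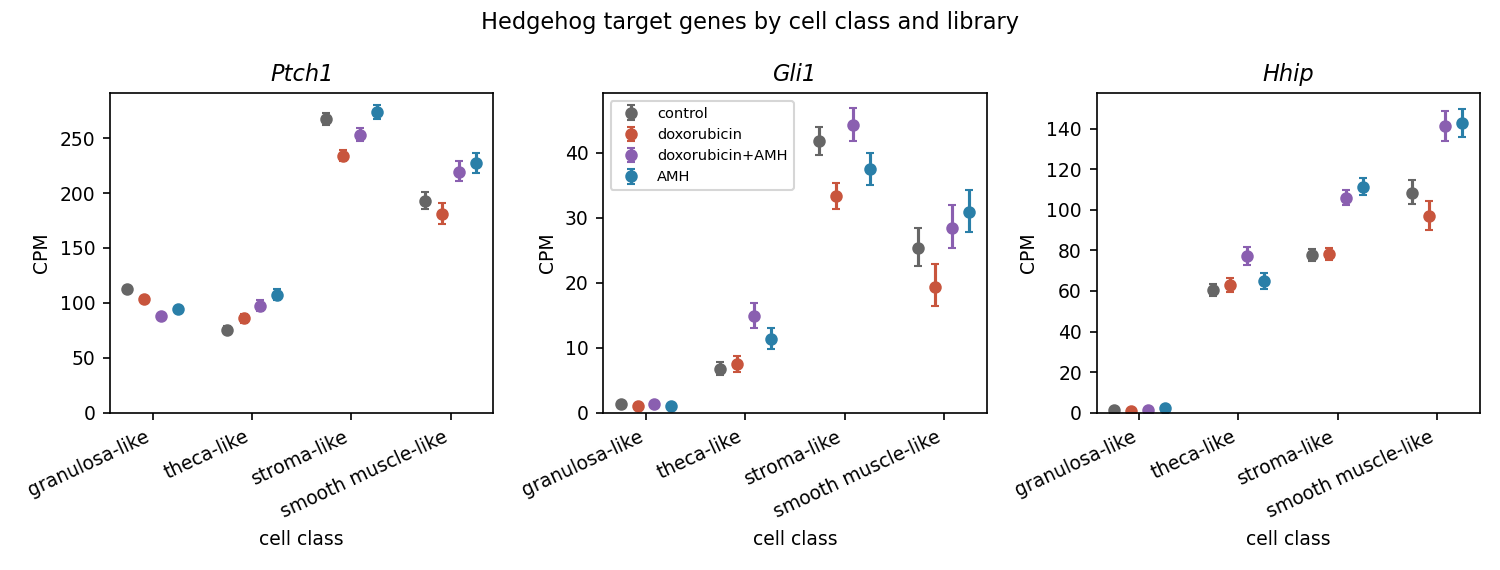
CPM (vertical) of Ptch1, Gli1 and Hhip in 4 cell classes (horizontal), coloured by library. Points are summed UMIs and bars are 95% exact Poisson intervals. In smooth muscle-like cells both AMH libraries lie above both others for Ptch1 and Hhip, and granulosa-like cells are near 0 for Gli1 and Hhip.

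Of 5 members with enough counts in theca-like cells, none was past 1.5-fold in either doxorubicin contrast, where 0.874% and 1.35% of 8579 genes were. For AMH against control Gli1 was past it on the high side (0.76, 0.46 to 1.06), as were 7.67% of genes. For doxorubicin+AMH against doxorubicin Gli1 (0.99, 0.69 to 1.30) and Gli3 (0.64, 0.41 to 0.86) were, as were 7.41% of genes. The mean of Gli1 was 10.1 CPM, and it passed the 10 CPM filter only through the AMH libraries, where it was high, so its calls are given as a description. Smo, the remaining one, had 48.6, 44.5, 51.1 and 52.2 CPM, with AMH ratios of 0.10 (-0.02 to 0.23) and 0.20 (0.06 to 0.34). Gli2, under the filter at a mean of 5.98 CPM, had 3.87, 3.79, 9.91 and 6.34 CPM. Within the 2 theca-like clusters with enough cells, the Gli2 ratio of AMH to control was below 0 (-1.23 and -0.31). That of doxorubicin+AMH to doxorubicin was above 0 there (0.53 and 0.86), and the intervals of all these ratios included 0. Many genes thus differed in this class with AMH, and 9.4% and 9.7% of genes were past the threshold on the low side. The steroid genes of theca were among these: 5 of 7 were lower in AMH against control and 6 of 7 in doxorubicin+AMH against doxorubicin, with medians of -1.58 and -1.64. All of these genes but Nr5a1 were also markers used to name the class, so the theca marker sum below is not a separate observation.

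The theca-like class was made of different clusters in the libraries with and without AMH. A cluster led by Cyp17a1, Cyp11a1 and Serpina5 held 79.8% and 72.4% of theca-like cells in control and doxorubicin and 7.94% and 6.13% in doxorubicin+AMH and AMH. A cluster led by Lhcgr, Prss35 and Dpp6 held 4.02%, 2.73%, 73.1% and 79.0%. The summed level of the 7 stroma markers in the class was 401 and 437 CPM without AMH and 943 and 869 CPM with it, none of the markers being at 0, that of the 4 glia markers, none at 0, was 9.15 and 9.02 CPM without AMH and 73.1 and 85.5 CPM with it, and that of the 8 theca markers was 15774 and 15184 CPM without AMH and 6213 and 5249 CPM with it. The part of these shifts in the Gli1, Gli3 and Ptch1 differences was not tested, but the values within clusters follow.

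Another theca-like cluster, led by Cyp17a1, Enpep and Lhcgr, had similar cell numbers in every library (137, 146, 136 and 131 cells) and held most of the Hhip of theca-like cells (1085 of 1580 UMIs in control and 788 of 1147 in AMH). Its stroma marker sum was 1662, 1361, 1530 and 1563 CPM. Hhip there stood at 303, 287, 198 and 215 CPM, so both AMH libraries lay below both others, with ratios of -0.49 for AMH against control and -0.54 for doxorubicin+AMH against doxorubicin. Gli1 was at 34.6, 28.5, 30.8 and 21.5 CPM, lowest in AMH, with a ratio to control of -0.68 (-1.11 to -0.27), opposite in sign to that of the whole class. Gli3 was likewise below control in AMH there (-0.54, -0.94 to -0.15). Ptch1 was at 186, 218, 154 and 224 CPM, high in doxorubicin and AMH and low in control and doxorubicin+AMH. The summed targets in this cluster were at -0.18 for AMH against control and -0.48 for doxorubicin+AMH against doxorubicin, where the class gave 0.36 and 0.28.

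**Figure D5:**
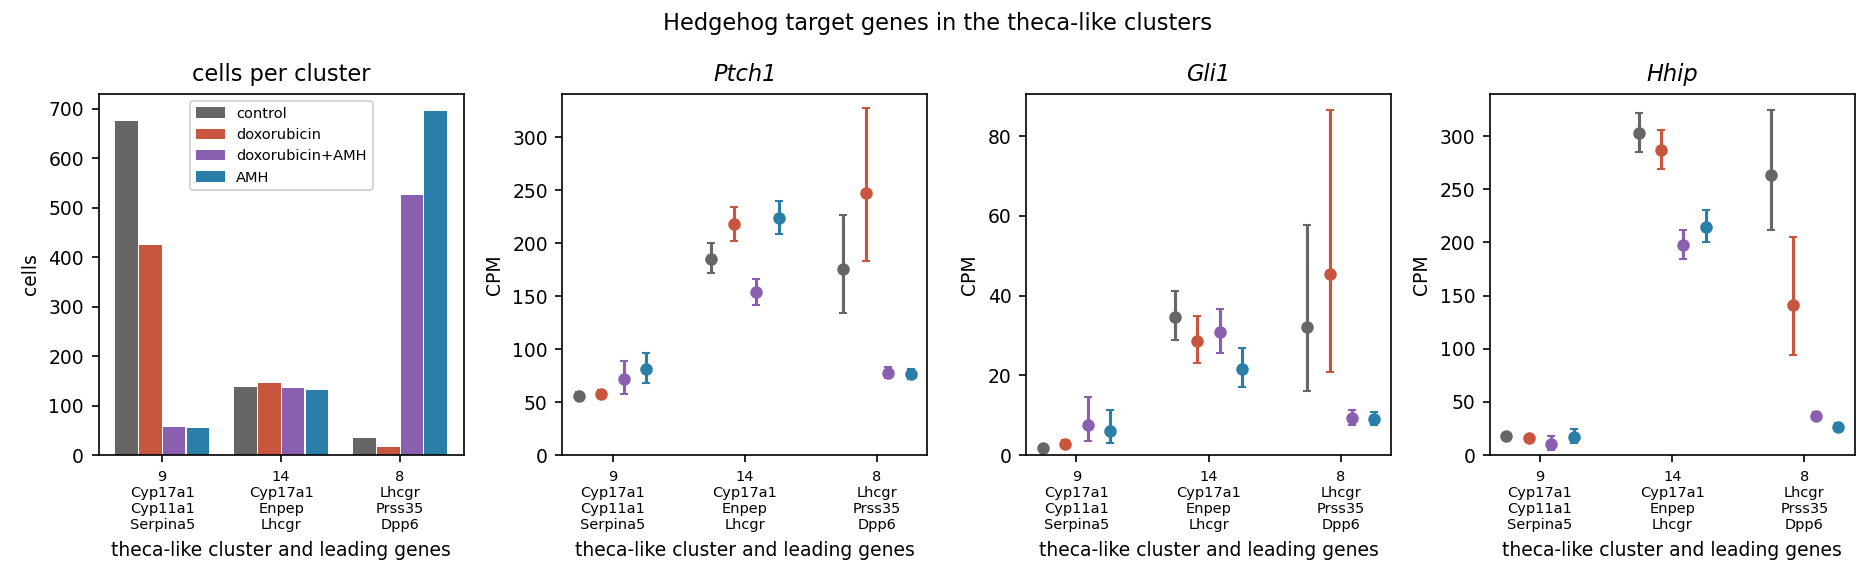
Cell numbers (first panel, bars from 0) and CPM of Ptch1, Gli1 and Hhip (other panels, points with 95% exact Poisson intervals) in the 3 theca-like clusters (horizontal, with their leading genes), coloured by library. The cluster led by Cyp17a1, Cyp11a1 and Serpina5 is large without AMH (675 and 425 cells) and that led by Lhcgr, Prss35 and Dpp6 large with AMH (525 and 696 cells), and in the cluster led by Cyp17a1, Enpep and Lhcgr Hhip is lower in both AMH libraries (198 and 215 CPM) than in the others (303 and 287 CPM).

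In the steroid-rich cluster, led by Cyp17a1, Cyp11a1 and Serpina5, Gli1 stood at 1.80, 2.74, 7.62 and 6.13 CPM, on 40, 44, 9 and 10 UMIs. Its AMH ratios, 1.77 (0.60 to 2.79) and 1.47 (0.25 to 2.53), had the sign of the class. Ptch1 stood there at 56.3, 57.3, 72.0 and 80.9 CPM, with AMH ratios of 0.52 (0.25 to 0.78) and 0.33 (-0.01 to 0.65), and Hhip at 18.2, 16.2, 10.2 and 17.2 CPM. Gli3 was at 10.7, 11.8, 15.2 and 15.3 CPM, with AMH ratios of 0.52 (-0.14 to 1.12) and 0.36 (-0.42 to 1.06). The summed targets were at 0.45 (0.21 to 0.68) and 0.24 (-0.06 to 0.52), so this cluster had the sign of the class and the one led by Cyp17a1, Enpep and Lhcgr the opposite sign. The intervals of Gli3, and those of Ptch1 and the sum for doxorubicin+AMH against doxorubicin, included 0. In the cluster led by Lhcgr, Prss35 and Dpp6, the AMH libraries had 9.36 and 9.05 CPM of Gli1, 77.9 and 76.5 CPM of Ptch1 and 36.7 and 26.8 CPM of Hhip. That cluster held only 34 and 16 cells without AMH. Dhh in the theca-like class had 5.70, 7.02, 2.25 and 2.26 CPM, of which 144, 127, 5 and 10 UMIs lay in the steroid-rich cluster (6.49, 7.91, 4.23 and 6.13 CPM). With AMH more of them, 24 and 25 UMIs, lay in the cluster led by Lhcgr, Prss35 and Dpp6. Granulosa markers in the class summed to 514, 504, 294 and 339 CPM, none of the 8 at 0, low in the same libraries as Dhh, and their part was not tested. Within the steroid-rich cluster the AMH ratios of Dhh were -0.08 (-1.17 to 0.84) and -0.90 (-2.55 to 0.36), so a difference with AMH was not detectable at this depth.

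In the stroma, the connective tissue between follicles, Hhip was higher with AMH. Its level was 77.8 CPM (74.9 to 80.7) with vehicle, 78.1 CPM (75.1 to 81.3) with doxorubicin, 106 CPM (102 to 109.9) with both agents and 111 CPM (107 to 116) with AMH. Both AMH libraries lay above both others, and the intervals of both doxorubicin ratios included 0, at 0.01 (-0.07 to 0.09) and -0.07 (-0.15 to 0.01). Over 10 settings the ratio of doxorubicin to control ran from -0.42 to 0.26, below 0 in 2 and above 0 in 8. Within clusters, though, Hhip was below 0 in 5 of 6 for both doxorubicin contrasts, with intervals below 0 in 3 and 4. The remaining cluster was at 0.60 (0.45 to 0.75) for doxorubicin against control. The AMH ratios were 0.52 (0.44 to 0.59) and 0.44 (0.36 to 0.52). In all 6 stroma-like clusters Hhip was above 0 for AMH against control (0.05 to 1.41) and for doxorubicin+AMH against doxorubicin (0.30 to 2.11), as were 4.81% and 4.54% of 9194 genes. With each library clustered alone the second ratio was 0.13, with marker gates the ratios were 0.17 and 0.30, and with doublets left in they were 0.31 and 0.89. The first was 0.59 with a mitochondrial limit of 10% and also with median-of-ratios scaling, so both ratios were past 1.5-fold under some settings. Smooth muscle markers in the stroma-like class summed to 745, 659, 1126 and 1024 CPM, none of the 7 at 0, and granulosa markers to 313, 333, 445 and 460 CPM, none of the 8 at 0. Both sums were higher with AMH, as Hhip was, and their part in the Hhip difference was not tested.

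Gli1 in stroma-like cells was lowest in the doxorubicin library, at 41.8, 33.4, 44.3 and 37.4 CPM. Its ratio was -0.33 (-0.44 to -0.21) for doxorubicin against control and 0.41 (0.29 to 0.53) for doxorubicin+AMH against doxorubicin. The first was below 0 in 6 of 6 clusters, as were 6.43% of genes, and the second above 0 in 6 of 6, as were 4.54% of genes. Oocyte markers in the class summed to 19.4, 182, 4.89 and 67.2 CPM, highest in the doxorubicin library, and their part in the Gli1 difference was not tested. With AMH as the base, doxorubicin+AMH was at 0.24 (0.12 to 0.37), so the 2 doxorubicin contrasts had opposite signs, with a difference of 0.57 (0.40 to 0.74). Ptch1 moved less, at 267, 234, 253 and 274 CPM, and was also lowest in doxorubicin (-0.19, -0.23 to -0.15, against control). Ihh in the granulosa-like cells of that library was at its highest. With doublets left in, the ratio of Gli1 for doxorubicin+AMH against doxorubicin was 0.64, past 1.5-fold. Of 6 members with enough counts in stroma-like cells, none was past 1.5-fold in any of the 4 contrasts under the main settings, where 1.07%, 1.21%, 1.84% and 2.02% of genes were, in the order doxorubicin against control, doxorubicin+AMH against AMH, AMH against control and lastly doxorubicin+AMH against doxorubicin.

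Smooth muscle-like cells showed the 3 targets higher together with AMH. Hhip stood at 108.5 CPM (103 to 115), 97.0 (90.1 to 104), 141 (134 to 148) and 143 (136 to 149.8). Ptch1 stood at 193, 181.0, 219.6 and 227 CPM, and Gli1 at 25.3, 19.4, 28.5 and 30.9 CPM. Doxorubicin was the lowest library for each, and both AMH libraries the highest, although with each cell weighted equally the ratio of doxorubicin to control turned to 0.038 for Hhip. Granulosa markers in the class summed to 309, 330, 472 and 470 CPM, with the same libraries high, and their part was not tested. The AMH ratios were 0.40 (0.29 to 0.50) and 0.54 (0.41 to 0.67) for Hhip, 0.23 (0.15 to 0.32) and 0.28 (0.18 to 0.38) for Ptch1, and 0.29 (0.06 to 0.51) and 0.55 (0.26 to 0.85) for Gli1. With doublets left in, the ratios of AMH to control were 0.16 for Hhip, 0.045 for Ptch1 and -0.016 for Gli1, and those of doxorubicin+AMH to doxorubicin were 0.32, 0.088 and 0.30. With cells of at least 500 UMIs, Ptch1 was at 0.082 and 0.097 and Gli1 at 0.059 and 0.33 in these contrasts. With per-cell marker gates the ratios of doxorubicin+AMH to doxorubicin were 0.68 for Hhip and 0.70 for Gli1, and with each library clustered alone 0.66 and 0.61, past 1.5-fold. Under the main settings none of 6 members was past it, where 3.48%, 2.77%, 1.52% and 1.61% of 8955 genes were, in the same order of contrasts.

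Of the smooth muscle-like clusters, the main one, led by Acta2, Myh11 and Actg2, had 687, 488, 673 and 668 cells. Within it Hhip was at 139, 101, 149.6 and 177 CPM, and Gli1 at 27.2, 19.8, 30.03 and 33.8 CPM. Its doxorubicin against control ratios were -0.46 for Hhip, -0.46 for Gli1 and -0.26 for Ptch1, below those of the whole class (-0.16, -0.39 and -0.09). The other cluster, led by Des, Cnn1 and Actg2, was low in Hhip (5.60 CPM in control and 17.4 CPM in AMH) and held 197, 18, 55 and 180 cells, so its share of the class differed between libraries. Ptch1 there was at 94.5, 42.7, 18.6 and 132 CPM, on 253, 12, 11 and 327 UMIs, so doxorubicin+AMH lay below control and AMH, and Hhip had no UMI in either doxorubicin library. In the main cluster the AMH ratios stayed above 0, at 0.34 and 0.57 for Hhip, 0.18 and 0.31 for Ptch1 and 0.31 and 0.60 for Gli1.

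Shares of cells followed the levels in part. After thinning, 11.7%, 12.0%, 16.99% and 12.7% of smooth muscle-like cells had a Hhip UMI, and 6.90%, 6.56%, 9.005% and 8.90% of stroma-like cells did (unthinned 28.2%, 35.4%, 39.7% and 33.6%, and 19.3%, 21.9%, 24.7% and 21.8%). In T or NK lymphocyte-like cells the share was 0.565% (1.03% unthinned), and in granulosa-like cells 0.255%. The smooth muscle-like AMH library, level with doxorubicin+AMH in CPM, was thus nearer to the libraries without AMH by share. Within stroma-like cells, those with a Ptch1 UMI had a Hhip UMI in 14.4% of cases and those without in 5.16%. The same pair of shares was 18.2% and 7.80% in theca-like and 19.2% and 11.1% in smooth muscle-like cells. A Hhip UMI was thus more frequent among cells with a Ptch1 UMI in each of these classes, which pool clusters that differ in both genes. For a Gli1 UMI the shares with and without Ptch1 were 8.94% and 5.82% in stroma-like cells. In theca-like cells they were 2.78% and 2.11%, with both genes in only 13 cells, and in the AMH library alone 1.28% and 1.68%.

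Smo and the Gli genes upstream of the response were also read in stroma-like and smooth muscle-like cells. Smo in smooth muscle-like cells was at 73.6, 70.9, 72.5 and 72.7 CPM, and in stroma-like cells at 77.2, 73.3, 69.7 and 65.9 CPM, lowest in AMH (-0.23, -0.32 to -0.14, against control). Gli2 was at 75.3, 78.0, 83.6 and 73.9 CPM in stroma-like cells. In smooth muscle-like cells Gli2 was higher in doxorubicin, at 79.6, 107.7, 93.2 and 77.0 CPM, with 0.44 (0.30 to 0.57) against control and 0.27 (0.14 to 0.41) for doxorubicin+AMH against AMH. Over 10 settings these ratios ran from 0.16 to 0.56 and from 0.13 to 0.32. In the main cluster alone these were 0.35 and 0.17, and in the cluster led by Des, Cnn1 and Actg2 Gli2 was lower with doxorubicin, at 55.3, 28.4, 23.6 and 40.9 CPM, on 148, 8, 14 and 101 UMIs. Gli3 was lower with AMH in stroma-like cells (64.8, 66.7, 55.0 and 56.6 CPM) and in smooth muscle-like cells (40.3, 41.5, 32.7 and 34.6 CPM).

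Over the same 98 combinations of cluster and library, the summed targets were most like Arhgap42 (r 0.835), Pknox2 (0.802), Zfp618 (0.801), Hs6st2 (0.791) and Egfr (0.758). They had r of -0.23 with Ihh and -0.18 with Dhh. These combinations span classes that carry ligands and classes that carry targets.

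Other genes of the pathway were read by list. In theca-like cells 5 of 15 reception genes had enough counts, and the co-receptors Boc (116, 99.6, 42.2 and 47.6 CPM) and Cdon (97.3, 93.3, 45.7 and 44.5 CPM), which help Ptch1 bind ligand, were past 1.5-fold lower in both AMH contrasts, where 9.4% and 9.7% of all genes were, in the class whose clusters differed with AMH. In smooth muscle-like cells the co-receptor Gas1 was lower with doxorubicin, at 207, 101, 105 and 163 CPM (-1.03 and -0.63), and Cdon was lower in doxorubicin against control (-0.64), where 2.71% and 2.03% of genes were past the threshold on the low side. The cluster led by Des, Cnn1 and Actg2 held fewer cells of the class in the same libraries, and its part in these differences was not tested. Pericyte markers in the class summed to 129, 97.6, 84.3 and 126 CPM, low in both doxorubicin libraries. Stroma markers summed to 3149, 3642, 3332 and 3056 CPM, high in both, and the part of either was not tested. No reception gene was past it in stroma-like cells. Of the 12 cilium genes that Smo signalling needs, 9 or 10 had enough counts in each class, and none was past 1.5-fold in any class or contrast. Of all genes, 0.874% to 3.48% were past it in the doxorubicin contrasts of theca-like, stroma-like and smooth muscle-like cells. In the AMH contrasts of theca-like cells 7.67% and 7.41% were past it on the high side and 9.4% and 9.7% on the low side. Nothing is read from a count of 0 among so few genes.

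Of the 8 mesenchymal genes known to answer to Hedgehog, 3 had enough counts in theca-like cells. Nr2f2, a transcription factor of the theca and stroma, had 396, 361, 598 and 693 CPM, and Bcl2, which holds back cell death, had 13.1, 14.6, 25.8 and 23.0 CPM. Both were past 1.5-fold higher in both AMH contrasts there, where 7.67% and 7.41% of all genes were, in the class whose clusters differed with AMH. In granulosa-like cells Bcl2 was lower with AMH (-1.51 and -1.52), where 2.61% and 3.5% of genes were past the threshold on the low side. In smooth muscle-like cells Osr2, a zinc finger factor of mesenchyme, was lower with doxorubicin (-0.88 and -0.60), at 73.4, 39.8, 43.4 and 65.7 CPM, where 2.71% and 2.03% of genes were past it on that side, again in the class whose clusters differed with doxorubicin, and none of the 5 with enough counts in stroma-like cells was past the threshold.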

How the data were processed

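The authors deposited unnormalized UMI counts for each gene and barcode, made with Cell Ranger 7.0.0, per the file headers. Build mm10, R 4.2.0 and Seurat 4.1.0 come from the submitters' processing notes. The aligner settings, and whether intronic reads or reads of overlapping genes were counted, are not given in the sources used here. Cells needed 1000 UMIs or more, of which 20% or less could be mitochondrial. Doublet scores came from Scrublet (scanpy 1.11.5) run on every library. Cells with the highest scores were taken out at 0.8% per 1000 deposited cells (677, 408, 489 and 719 cells), since the automatic threshold marked 1, 135, 5 and 0. One joint Leiden clustering (resolution 1.0, 2000 variable genes, 30 principal components, 20 neighbours, no correction between libraries) left out the Hedgehog genes and all listed genes. It gave 33 clusters.

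To be named, a cluster needed 3 markers or more, making up 60% of a list, each 1 log2 unit over the median cluster and present in 10% of the cells. It stayed unnamed where its UMIs were under 33.3% of the library median with no marker among its top 10 genes, or where it met the lists of granulosa and of a mesenchymal class. These thresholds were set after seeing the data, and the members and gene lists were chosen with earlier results of these data known. The members are named in the granulosa-like, theca-like, stroma-like and smooth muscle-like classes, and other listed genes where they passed the fold. The 5 genes most like each ligand and the target sum were ranked by Pearson's r. Rhebl1, Arhgap9, Ank1 and Eda2r were chosen after their values were seen.

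Ratios carry exact conditional binomial intervals, levels exact Poisson intervals and shares Clopper-Pearson intervals. The calculation was tested on simulated data. Alternatives were median-of-ratios scaling, equal cell weights, other limits on UMIs and mitochondrial share, doublets left in, marker gates, libraries clustered alone, a pseudocount of 5 CPM and resolution 2.0. Added after seeing the data were leaving out clusters of 1 library or of low UMIs, a pooled mix of clusters, and the theca-like cluster led by Cyp17a1, Enpep and Lhcgr alone.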

Additional observations from a re-analysis of the deposited data

Results flagged for a closer look

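Ptch1 differed with AMH in opposite directions between cell classes. In granulosa-like cells its log2 ratio was -0.26 for AMH against control and it was -0.23 for doxorubicin+AMH against doxorubicin. Single granulosa-like clusters did not share this, with 4 of 7 above 0 for each contrast. In theca-like cells it was 0.51 and 0.18, and in smooth muscle-like cells 0.23 and 0.28. Within the theca-like cluster led by Cyp17a1, Enpep and Lhcgr the same ratios were 0.27 and -0.50, and in that led by Cyp17a1, Cyp11a1 and Serpina5 they were 0.52 and 0.33, so the clusters were split for the second contrast. The difference between classes was not tested.

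Gli3 was split likewise. In theca-like cells its ratio was 0.55 for AMH against control and 0.64 for doxorubicin+AMH against doxorubicin. In stroma-like cells it was -0.19 and -0.28, and in smooth muscle-like cells -0.22 and -0.35. In the theca-like cluster led by Cyp17a1, Enpep and Lhcgr the values were -0.54 and 0.11, and in that led by Cyp17a1, Cyp11a1 and Serpina5 they were 0.52 and 0.36, with intervals that included 0. Stroma markers summed to 401 and 437 CPM in theca-like cells without AMH and to 943 and 869 CPM with it, and their part in the theca-like value was not tested. The difference between classes was not tested either.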

How the results depend on the processing

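No paired analysis was possible because each group is 1 library, and no replicate could be left out. Over 13 settings Ihh in granulosa-like cells kept its direction in all 4 contrasts, at 0.62 to 0.86, 0.40 to 0.67, -0.75 to -0.60 and -0.98 to -0.73. The summed ligand ratio with per-cell marker gates was 0.71 (doxorubicin against control), 0.32 (doxorubicin+AMH against AMH), -0.38 (AMH against control) and, lastly, -0.77 (doxorubicin+AMH against doxorubicin). Weighting cells equally gave 0.69 and -0.69 for the first and last of these, the pooled mix of clusters (added after seeing the data) 0.28 and -0.74 for the second and last, and median-of-ratios scaling -0.40 for the third.

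The summed target ratio in theca-like cells depended on which cells were called theca. With marker gates it was -0.056, 0.12, 0.55 and 0.73 in the same order of contrasts, with libraries clustered alone -0.45, 0.15, 0.29 and 0.89, and in the cluster led by Cyp17a1, Enpep and Lhcgr, chosen after seeing the data, 0.028, -0.27, -0.18 and -0.48. A mitochondrial limit of 10% gave 0.13, 0.11 and 0.12 for the last 3 contrasts, equal weights 0.17 and 0.14 for the AMH contrasts, and for AMH against control median-of-ratios scaling gave 0.43 and doublets left in 0.45. Gli1 for AMH against control reversed to -0.68 in the same Enpep cluster. Dhh in granulosa-like cells turned to 0.019 with gates, and Gli1 in smooth muscle-like cells to -0.016 with doublets left in, both for AMH against control. Counts of genes past 1.5-fold, 37 to 1468 over 16 comparisons, were 70 to 1955 with a mean of at least 5 CPM, 15 to 1019 with 20 CPM and 6704 to 10079 without a filter.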
